A study of Mus musculus with 6 samples.

Results

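The 7 members of the S100 gene family followed here through striatal astrocyte maturation were *S100b*, *S100a1*, *S100a13*, *S100a16*, *S100a6*, *S100a10* and *S100a11*. They were chosen by name, as 7 of the 32285 genes in the deposited table of UMI counts (UMIs, or unique molecular identifiers, tag single transcript molecules before amplification), and all 7 were detected. Cells came from the striatum of wild-type male C57BL/6 mice, either at postnatal day 3 (P3) or at 3 months of age (3m), and were enriched with magnetic beads against ACSA2, an astrocyte surface antigen, before droplet-based 3′ single-cell RNA-seq. Each age had 3 libraries, which the study describes as independent preparations, and no allele, transgene or treatment was used at either age. Of 16690 barcodes, 14373 passed the authors' filter. The authors placed 9992 of these in the astroglial lineage, in 17 sub-clusters.

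S100 proteins are small calcium-binding proteins that usually act as dimers, each subunit carrying a pair of EF-hand loops. On binding calcium most of them expose a surface that docks to a partner, and several are also released and can bind the receptor RAGE, encoded by *Ager*. In the brain S100B is a widely used marker of mature astrocytes. S100A10 (p11) is the exception of the family, as its loops no longer bind calcium, and it works as the partner of annexin A2.

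Of these genes, 6 lie on mouse chromosome 3, in 2 groups of neighbours, and *S100b* does not (GENCODE M21, GRCm38). *S100a1*, which regulates calcium cycling in muscle, runs on the minus strand at chr3:90511034-90514392. *S100a13*, whose product takes part in the release of FGF1, starts on the plus strand 42 bases away, at chr3:90514435-90524581. *S100a16* (chr3:90537254-90543151) and *S100a6*, which encodes calcyclin (chr3:90612882-90624181), follow on the plus strand. *S100a11* (chr3:93520488-93526287) and *S100a10* (chr3:93555080-93564643) are a second pair of plus-strand neighbours. *S100b* is on chromosome 10, plus strand, at chr10:76253853-76261159, and its 3′ end overlaps *Dip2a* on the minus strand. Whether reads were counted by strand is not given in the sources used here, so whether *S100b* and *Dip2a* reads at that end were kept apart is uncertain. *S100a11* has a processed pseudogene on chromosome 12 with no row in the count table, and how reads shared with it were counted is uncertain.

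Upstream sequence was available for 6 of the 7 genes (RefSeq promoter windows, GRCm38.p6) and is shown for the genes called between ages over all astroglia, on the plus strand, with matches to any of 4 motifs in capitals. The motifs, searched on both strands, were the TATA box (TATAAA), the GC box (GGGCGG), the CCAAT box and the AP-1 site (TGANTCA), and none of the matches overlapped another. The first line is the whole gap between the divergent *S100a1* and *S100a13* (chr3:90514393-90514434), and the others are 150 bases before the RefSeq starts of *S100b* (chr10:76253686-76253835) and *S100a11* (chr3:93520338-93520487). The RefSeq start of *S100b* lies upstream of the GENCODE start given above, so its window ends short of the latter.
S100a1 to S100a13 gap: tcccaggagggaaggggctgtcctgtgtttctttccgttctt
S100b: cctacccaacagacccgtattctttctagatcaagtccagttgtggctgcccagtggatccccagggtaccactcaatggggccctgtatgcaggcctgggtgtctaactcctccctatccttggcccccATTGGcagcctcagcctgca
S100a11: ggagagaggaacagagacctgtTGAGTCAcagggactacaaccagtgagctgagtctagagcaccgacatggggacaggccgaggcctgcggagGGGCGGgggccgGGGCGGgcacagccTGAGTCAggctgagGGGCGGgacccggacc
The *S100b* window held 1 CCAAT match, read as its reverse complement, a motif found in 24.5% of all 32851 windows of this length. The *S100a11* window held 3 GGGCGG matches and 2 TGANTCA matches, motifs found in 28.6% and 4.24% of windows. The 42-base gap held no match, where windows of that length held TATAAA in 3.13%, GGGCGG in 13.3%, CCAAT in 6.93% and TGANTCA in 0.886%. A match describes the letters only, not a bound site.

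The libraries differed in depth and composition. The 3m libraries held 5471573 to 10522151 UMIs and the P3 libraries 32193875 to 37795021, of which astroglial cells held 1157485 to 1843998 and 22192415 to 30138579. One 3m library, replicate 1, had 836 of 1653 barcodes at or above 10% mitochondrial UMIs, and it supplied 98.9% of astroglial sub-cluster 14. Sub-cluster 1 came to 95.5% from P3 replicate 1, and sub-clusters 4 and 12 to 97.8% and 96.1% from P3 replicate 3. Among the cells kept, 28 barcode sequences occurred in more than 1 library (56 cells). All 10 astroglial markers checked, from *Aqp4* to *Mfge8*, were detected in every astroglial sum. Cluster 19 (96 cells), which the authors named astrocyte but whose leading genes (*Deup1*, *Mcidas* and *Myb*) belong to multiciliated cells, is described apart and entered neither the astroglial sums nor the shares, which left 9896 cells, 1118 at 3m and 8778 at P3. P3 cluster 1 (1473 cells) also had cilia genes among its leading genes (*Riiad1*, *Pifo*, *Dnajb13*, *Enkur* and *Capsl*). None of the astroglial markers was among them, but of all clusters named astrocyte P3 cluster 15 alone had any there (*Gfap* and *Aqp4*). It stayed in the sums under the authors' name, with the 10 astroglial markers at 17576 to 23535 CPM and the 5 multiciliated markers at 253 to 381 CPM, against 6274 to 9397 CPM and 2806 to 3649 CPM in cluster 19.

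Across the cell types named by the authors, the 7 genes had different distributions. Levels are given as CPM (counts per 1000000) of all UMIs in the same cells of a library, as the range over libraries, and describe clusters that were themselves built from the genes of these cells. The 3′ counts are not scaled by transcript length, so levels are compared between cells for 1 gene and not between genes. Orders cover types with at least 10 cells in each of 3 libraries, which at 3m leaves out oligodendrocyte precursors (13 cells in all, pooled levels of 795 CPM for *S100b* and 1349 CPM for *S100a1*). *S100b* at 3m was highest in astrocytes (599 to 682 CPM), followed by oligodendrocytes (469 to 495 CPM), and was at 9.73 to 38.9 CPM in endothelial cluster 17. At P3 its level was 63.2 to 87.6 CPM in astrocytes, which overlapped the 22.0 to 289 CPM of oligodendrocyte precursors, and 0.952 to 1.35 CPM in endothelial cluster 7. *S100a1* at 3m was likewise highest in astrocytes (884 to 906 CPM), without overlap with oligodendrocytes (295 to 308 CPM) or endothelial cells (153 to 190 CPM). At P3 the order was different, since oligodendrocyte precursors (463 to 922 CPM), cluster 19 (422 to 542 CPM) and astrocytes (340.0 to 452 CPM) overlapped in turn.

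*S100a13* and *S100a16* were spread over more types. For *S100a13* at 3m, endothelial cells (564 to 712 CPM) and astrocytes (560.3 to 591 CPM) overlapped and oligodendrocytes (371 to 424 CPM) lay below both. At P3 oligodendrocyte precursors had the highest range, 331 to 1099 CPM, followed by endothelial clusters 13 and 7, whose levels of 216 to 327 CPM and 258 to 287 CPM overlapped. *S100a16* at 3m was higher in oligodendrocytes (593 to 619 CPM) than in astrocytes (465 to 568 CPM) in every library. At P3 it reached 606 to 726 CPM in oligodendrocyte precursors and 541 to 648 CPM in astrocytes, with overlap. Both genes were lower in cycling glial progenitors at P3, at 86.1 to 110 CPM for *S100a13* and 230.3 to 301 CPM for *S100a16*.

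By named cell type, *S100a6*, *S100a10* and *S100a11* reached their highest levels outside astrocytes. *S100a6* was highest in cluster 19 (1119 to 1461 CPM at P3), above oligodendrocyte precursors (342 to 536 CPM) and astrocytes (258 to 477 CPM), and it was nearly missing from P3 endothelial cluster 7 (4.41 to 9.07 CPM). *S100a10* at P3 was also highest in cluster 19 among clusters with 3 libraries, at 81.7 to 207 CPM, which overlapped neurons (62.2 to 173 CPM) and pericyte cluster 6 (54.3 to 111 CPM). At 3m its highest level over 3 libraries was in endothelial cells (94.9 to 146 CPM), and oligodendrocytes were at 1.93 to 3.93 CPM. *S100a11* was high in the vascular clusters, with 1109 to 1581 CPM in P3 pericyte cluster 6, which is led by smooth muscle genes such as *Acta2*, *Tagln* and *Myh11*. *S100a11* was at 239 to 318 CPM in P3 endothelial cells, at 315 to 366 CPM in 3m endothelial cells and at 0.262 to 1.07 CPM in 3m oligodendrocytes. The P3 endothelial range was overlapped by P3 astroglial sub-clusters 15 (217 to 349 CPM), most of whose cells belong to cluster 19, and 3 (104 to 253 CPM).

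**Figure D1:**
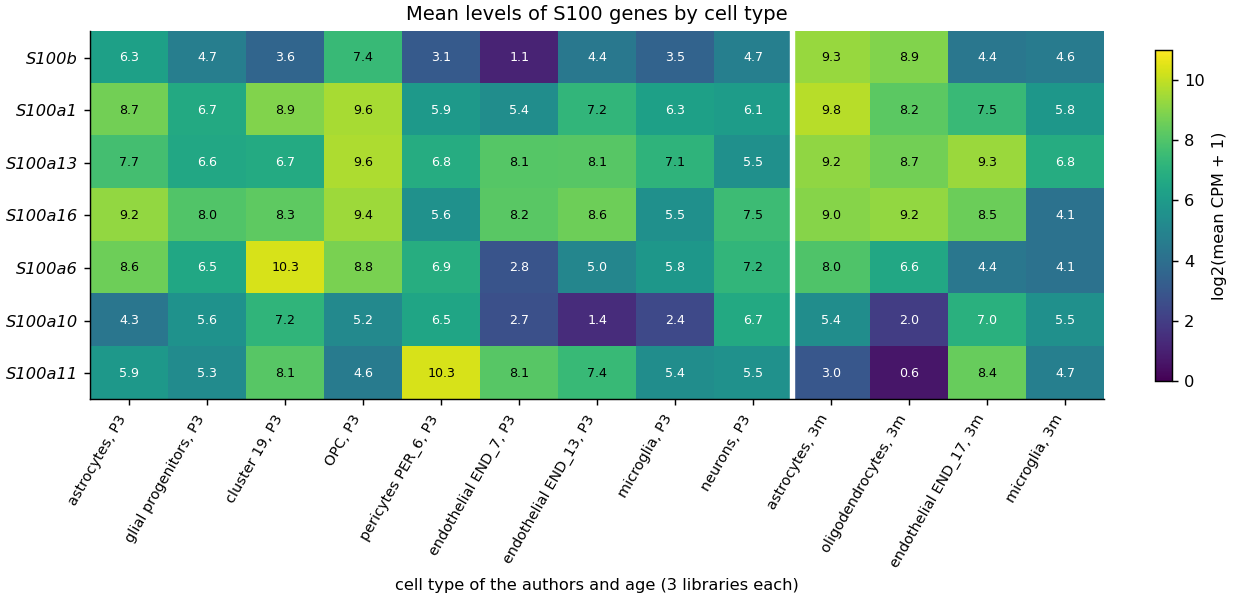
Mean level of each S100 gene, as log2(mean CPM + 1) by colour and number, in the authors' cell types at P3 (left of the white line) and 3m (right), over 3 libraries each. Endothelial and pericyte clusters stand out for *S100a11*, cluster 19 for *S100a6*, and 3m astrocytes for *S100b* and *S100a1*.

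The first comparison asked how the S100 genes differ between astroglia at 3m and at P3. *S100b*, *S100a1* and *S100a13* were higher at 3m and *S100a11* was lower, while *S100a16* and *S100a6* overlapped between ages. Sums over cells cannot by themselves separate fewer expressing cells from less RNA per cell. Thus 3 of the 7 genes rose and 1 fell, where 15.9% of the 13469 genes tested were called higher and 16% lower (edgeR; here and throughout, a call needs an adjusted p of 0.05 or less and a change of at least 1 on the log2 scale in either direction). The median log2 fold change of the 7 genes was 0.83, against −0.04 for all genes tested.

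*S100b* stood at 604, 682 and 599 CPM in 3m replicates 1 to 3 and at 54.2, 72.1 and 64.5 CPM in P3 replicates 1 to 3. Every 3m library lay far above every P3 library, and the gene rose 11.1-fold (log2 fold change 3.48, SE 0.21, edgeR adjusted p = 1.97e-08). *S100a1* was at 886, 906 and 884 CPM at 3m and 284, 369 and 343 CPM at P3. It rose 3.03-fold with no overlap (edgeR adjusted p = 1.8e-05). Its divergent neighbour *S100a13* was at 591, 575 and 560.3 CPM at 3m and 158, 216 and 177 CPM at P3. It rose 3.51-fold, again with separate ranges (log2 fold change 1.81, SE 0.20, edgeR adjusted p = 5.38e-06).

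The other neighbours on chromosome 3 did not share that pattern. *S100a16* measured 568, 465 and 503 CPM at 3m and 468, 563 and 495 CPM at P3, and *S100a6* measured 240.2, 257 and 244 CPM against 216, 388 and 341 CPM. Both overlapped between ages (log2 fold changes 0.18 and −0.18, edgeR adjusted p = 0.455 and 0.530). *S100a10* was at 46.7, 35.8 and 41.4 CPM at 3m and 18.6, 33.5 and 25.1 CPM at P3. Its 3m libraries were all above its P3 libraries, but at 1.78-fold (log2 fold change 0.83, SE 0.24, edgeR adjusted p = 0.0114) it missed the fold threshold, which it passed without P3 replicate 2 (1.18). *S100a11*, by contrast, was at 8.64, 6.51 and 5.43 CPM at 3m, 30 UMIs in all, and at 30.0, 77.6 and 51.4 CPM at P3. The gene fell 7.05-fold, with separate ranges (log2 fold change −2.82, SE 0.42, edgeR adjusted p = 8.59e-05).

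Markers of oligodendrocytes moved with age in these astroglial sums. All 6 were detected in every 3m library, where they summed to 708 to 1864 CPM, against 5.44 to 6.4 CPM at P3, where *Mog* and *Opalin* were at 0. With cells above 1% oligodendrocyte marker UMIs left out, the *S100b* log2 fold change was 3.44. In 3m oligodendrocytes themselves these markers summed to 26316 to 47658 CPM and *S100b* was at 469 to 495 CPM, below its level in 3m astroglia. The part of oligodendrocyte RNA in the *S100b* rise was not otherwise tested.

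**Figure D2:**
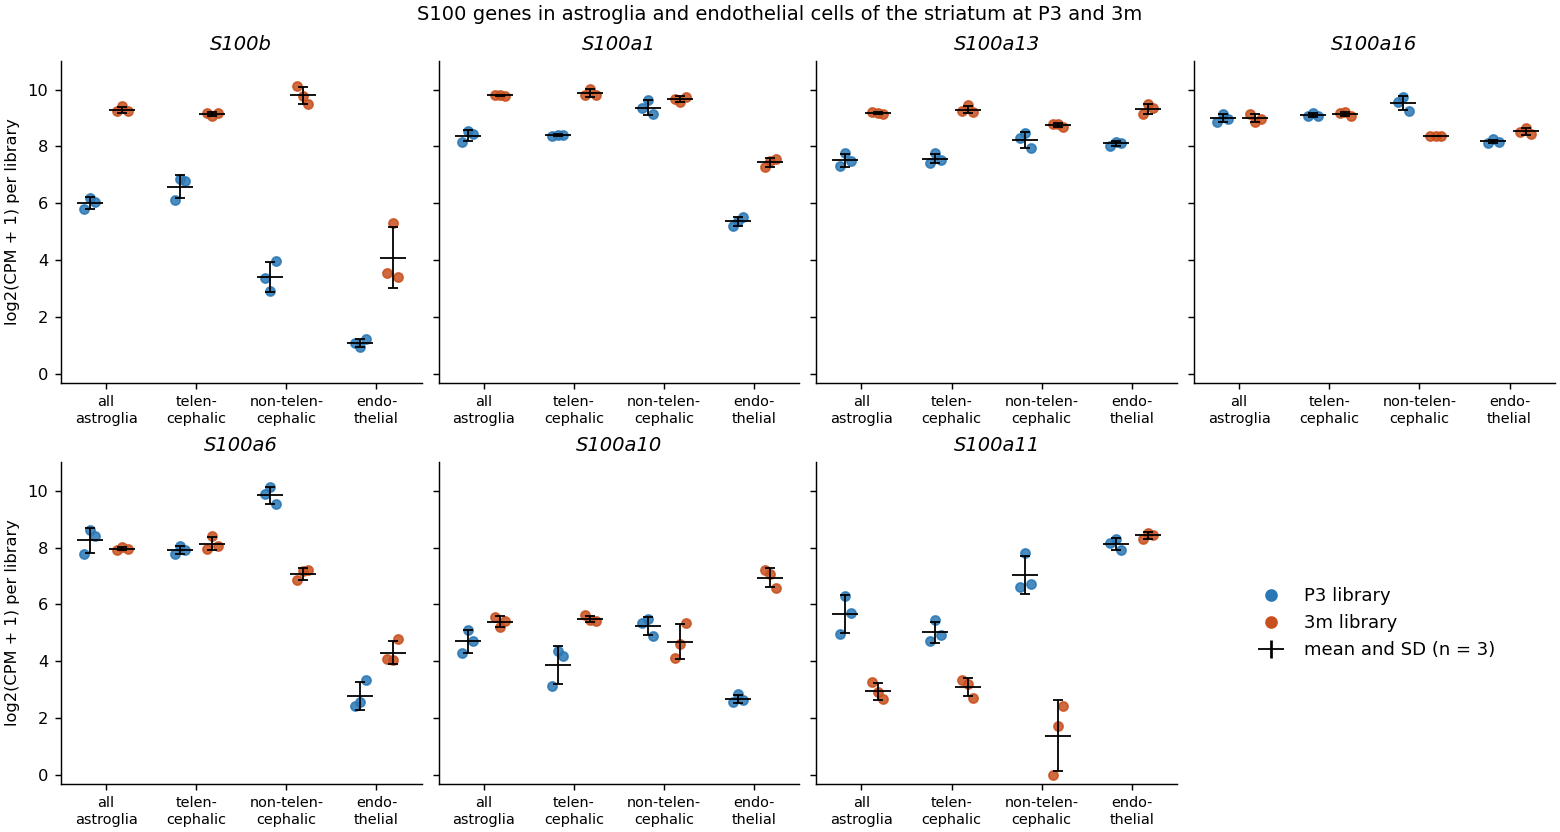
Level of each S100 gene, as log2(CPM + 1), in each library (points; blue P3, orange 3m) for all astroglia, telencephalic astrocytes, non-telencephalic astrocytes and endothelial cells, with the mean and SD of 3 libraries as bars. *S100b* is higher at 3m in every population, whereas for *S100a6* and *S100a16* the non-telencephalic astrocytes are the plotted population with every 3m library below every P3 library.

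Shares of cells with a UMI were compared at equal depth, after each cell was thinned to 2000 UMIs, because P3 cells were deeper (library medians of 5416.5 to 9663.5 UMIs in astroglia, against 2977 to 5326 at 3m). At this depth *S100b* was found in 65.7% ± 1.25 (SD, n = 3) of 3m cells and 10.4% ± 0.759 of P3 cells. The same shares were 78.8% and 46.9% for *S100a1*, 64.3% and 31.9% for *S100a13*, 7.50% and 3.67% for *S100a10*, and 1.31% and 9.82% for *S100a11*. For these genes the libraries of the 2 ages did not overlap, which with 3 against 3 gives the smallest p the design allows (exact permutation test, two-sided, p = 0.1, adjusted over the 7 genes p = 0.14). *S100a16* (61.2% and 62.8%) and *S100a6* (35.9% and 40.8%) overlapped. The thinning left out 212 of the 3m cells and 1112 of the P3 cells, and without it *S100b* was found in 81.3% and 25.4% of cells.

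These shares exceeded those in cells that should lack *S100b*. Endothelial cells thinned in the same way had an *S100b* UMI in 2.03% of cells at 3m and 0.247% at P3, from library medians of 5061.5 to 8780 and 22409 to 32603 UMIs before thinning. Microglia, with 16 to 19 cells per 3m library at this depth, were at 6.31%, 6.45% and 0% in 3m replicates 1 to 3. In P3 replicates 1 to 3 microglia were at 0.785%, 0% and 3.30%. For *S100a11*, 3m oligodendrocytes had a UMI in 0.0923% of cells, below the 1.31% of 3m astroglia. Microglia at 3m were above that share, at 5.31%, 4.94% and 4.98% in replicates 1 to 3. At P3 microglia were at 0.607%, 5.60% and 1.18%, against a mean of 9.82% in P3 astroglia.

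Telencephalic and non-telencephalic astrocytes, as the authors set them apart with a reference atlas, were compared separately. Telencephalic astrocytes were taken as sub-clusters 0, 1, 2, 9 and 11 at P3 (4690 cells) and 7 and 14 at 3m (788 cells), without the cycling sub-clusters. Sub-cluster 2 (922 P3 cells) was included because it lies on the main lineage towards the 3m cells, and its own likeness to the atlas was not stated. Here 4 of the 7 genes rose with age and 1 fell, where 15.4% of 12332 genes were called higher and 14.3% lower, and the median log2 fold change was 1.69 for the 7 genes and −0.03 for all genes. *S100b* measured 576, 535 and 576 CPM at 3m and 68.6, 115 and 109.8 CPM at P3, a 6.55-fold rise with no overlap (log2 fold change 2.71, SE 0.21, edgeR adjusted p = 5.69e-10). *S100a1* and *S100a13* rose 3.22-fold and 3.77-fold (log2 fold changes 1.69 and 1.92, edgeR adjusted p = 1.47e-07 and 2.50e-08).

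*S100a10*, which missed the threshold over all astroglia, passed it in telencephalic astrocytes. It was at 48.4, 42.5 and 41.9 CPM at 3m and at 7.72, 19.5 and 17.0 CPM at P3. The ages were separated by more than the spread of either, and the rise was 3.40-fold (log2 fold change 1.76, SE 0.28, edgeR adjusted p = 1.93e-05). *S100a11* fell 3.75-fold, from 25.3, 42.3 and 29.1 CPM at P3 to 9.12, 8.29 and 5.64 CPM at 3m (log2 fold change −1.91, SE 0.33, edgeR adjusted p = 4.70e-05). *S100a16* and *S100a6* had log2 fold changes of 0.24 and 0.41 (edgeR adjusted p = 0.285 and 0.0710). Without sub-clusters 1 and 14, each nearly all from 1 library, the log2 fold changes of the 5 called genes were 2.74, 1.90, 2.06, 1.39 and −2.01 in the order *S100b*, *S100a1*, *S100a13*, *S100a10* and *S100a11*, an alternative added after cell numbers by library were seen. Without sub-cluster 2, also added later, they were 2.37, 1.46, 1.82, 3.14 and −1.77, so that the size of the *S100a10* rise depended on it.

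In non-telencephalic astrocytes *S100b* rose with age and *S100a6* and *S100a11* fell, of which the *S100a6* call was lost when P3 cluster 1 was left out. These cells were sub-clusters 3, 4, 5, 10, 12 and 15 at P3 (2910 cells) and 13 and 16 at 3m (323 cells, of which 17 in 3m replicate 1). By its maturation genes, the paper likens 3m sub-cluster 16 to early postnatal, immature astrocytes, so age is not the same as maturity here. *S100b* was at 9.42, 6.53 and 14.7 CPM at P3 and at 1107, 865 and 726 CPM at 3m. No library came near the other age, and the rise was 103-fold (log2 fold change 6.69, SE 0.34, edgeR adjusted p = 2.07e-15). *S100a6* was at 932, 1112 and 729.6 CPM at P3 and at 114, 142 and 149 CPM at 3m. The libraries were again separate, and it fell 5.30-fold (log2 fold change −2.40, SE 0.31, edgeR adjusted p = 3.32e-07).

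*S100a11* was at 97.0, 224 and 104 CPM in these P3 cells, but 3m replicates 1 to 3 held 0, 2 and 1 UMIs. It passed the test as lower (edgeR adjusted p = 7.17e-08), and the ratio of P3 to 3m over the pooled UMIs was 59.0 (95% counting interval 20.2 to 286). *S100a16* was at 758, 854 and 613 CPM at P3 and 326, 329 and 328 CPM at 3m, separate ranges that missed the fold threshold (log2 fold change −0.87, edgeR adjusted p = 0.0147), though not without P3 replicate 1 (−1.05) or 3 (−1.16). *S100a1*, *S100a13* and *S100a10* were not called, at log2 fold changes of 0.57, 0.80 and −0.13 (edgeR adjusted p = 0.114, 0.0175 and 0.822). In all, 1 of the 7 genes rose and 2 fell, where 15.3% of 8508 genes were called higher and 14% lower. The median log2 fold change was −0.13 for the 7 genes and −0.06 for all genes.

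Other cell types' markers moved with these values too. The 6 oligodendrocyte markers summed to 2870 to 23362 CPM at 3m, with the highest value in replicate 1, which also had the highest *S100b*, and to 4.94 to 6.60 CPM at P3, where *Mobp*, *Mog* and *Opalin* were at 0. *S100b* in these 3m cells was above its level in 3m oligodendrocytes in every library, and the part of oligodendrocyte RNA in its rise was not tested. The 5 multiciliated markers summed to 184 to 316 CPM at P3 and at most 26.2 CPM at 3m, and cluster 1, where they were at 253 to 381 CPM, supplied 1463 of the 2910 P3 cells. An alternative without cluster 1 was added after its leading genes had been seen. It took *S100a6* below the threshold (log2 fold change −0.89, edgeR adjusted p = 0.0172) and *S100a1* and *S100a13* above it (1.18 and 1.12, edgeR adjusted p = 0.00243 and 0.00198). *S100a10*, not called either way, went to 0.97 (edgeR adjusted p = 0.0659). *S100b* and *S100a11* stayed called at 6.04 and −4.77, which made 3 genes higher and 1 lower. The share of all genes called in that refit is not given, so these counts are not set against a background.

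After the levels by sub-cluster had been seen, the difference between the age effects of both regional groups was tested in a model with library as a block. With all cells, all 7 genes passed, 1 with a larger log2 fold change with age in non-telencephalic astrocytes and 6 with a lower one, where 8.31% and 8.42% of 9943 genes were called in those directions. For *S100b* the non-telencephalic age effect exceeded the telencephalic one by 3.97 on the log2 scale (SE 0.25, edgeR adjusted p = 3.36e-11). The difference was −2.98 for *S100a6* (edgeR adjusted p = 5.99e-10), −1.22 for *S100a1*, −1.23 for *S100a13*, −1.20 for *S100a16*, −1.86 for *S100a10* and −3.60 for *S100a11* (edgeR adjusted p = 7.19e-05, 2.01e-05, 8.59e-05, 0.00279 and 0.00268). The *S100a11* call was lost without 3m replicate 2 (−3.13, edgeR adjusted p = 0.10). The median difference was −1.23 for the 7 genes and −0.08 for all genes. Without cluster 1, 3 genes passed, *S100b* (3.2), *S100a6* (−1.53) and *S100a11* (−3.14), while *S100a1*, *S100a13*, *S100a16* and *S100a10* were at −0.67, −0.97, −0.87 and −0.79 (edgeR adjusted p = 0.0494, 0.00209, 0.00749 and 0.246). Without sub-cluster 2, *S100a1* was no longer called (−0.97, edgeR adjusted p = 0.0013) and *S100a10* was at −3.23. Shares of all genes called are not given for the refits without cluster 1 or sub-cluster 2.

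Single sub-clusters of the regional groups overlapped in part. At P3 *S100b* was at 241 to 428 CPM in telencephalic sub-cluster 11, at 113 to 133 CPM in sub-cluster 0 and at 3.65 to 11.8 CPM across non-telencephalic sub-clusters 3, 5 and 10. Telencephalic sub-cluster 2, at 14.1 to 34.5 CPM, overlapped non-telencephalic sub-clusters 4 (14.6 to 33.0 CPM), 12 (29.6 CPM, 1 library) and 15 (0 to 19 CPM). *S100a6* was high in sub-clusters 15 (1292 to 1648 CPM), 3 (1004 to 1232 CPM) and 5 (889 to 1159 CPM). In the other non-telencephalic sub-clusters it was at 286 to 453 CPM (10), 233 to 298 CPM (4) and 164 CPM (12), beside 267 to 330.0 CPM in sub-cluster 0 and 197 to 394 CPM in sub-cluster 11. *S100a6*, *S100a10* and *S100a11* all had their highest P3 mean in sub-cluster 15, most of whose cells belong to cluster 19. *S100a10* otherwise was at 36.2 to 63.6 CPM in cycling sub-cluster 6 and at 4.36 to 6.36 CPM in sub-cluster 0. At 3m the spread was smaller, and *S100b* ranged from 535 to 931 CPM in telencephalic sub-cluster 7 and from 750 to 1091 CPM in non-telencephalic sub-cluster 16, with overlap. Sub-cluster 16 held no *S100a11* UMI.

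**Figure D3:**
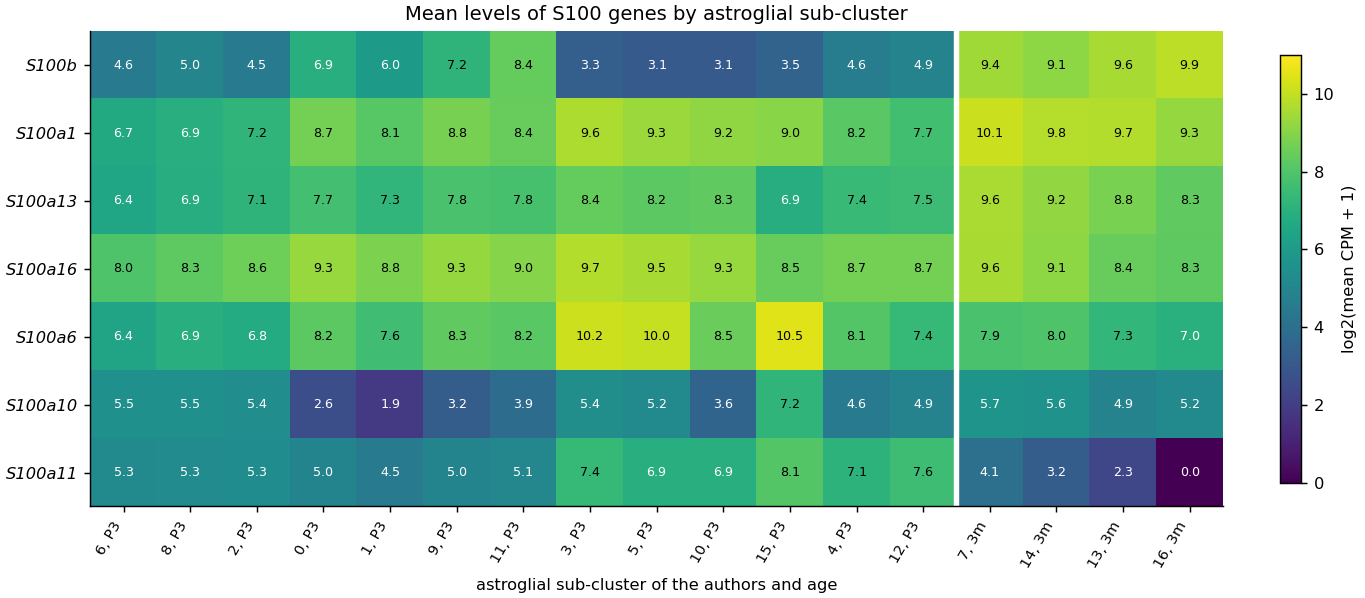
Mean level of each S100 gene, as log2(mean CPM + 1) by colour and number, in the authors' astroglial sub-clusters, grouped from left as cycling (6, 8), telencephalic (2, 0, 1, 9, 11) and non-telencephalic (3, 5, 10, 15, 4, 12) at P3 and then, right of the white line, 3m. Sub-clusters 3 and 5 are low for *S100b* and high for *S100a6*, and *S100a11* is low in all 3m sub-clusters.

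Along the pseudotime of the main telencephalic lineage, which the authors computed from cycling cells towards 3m astrocytes and cut into bins, *S100b*, *S100a1*, *S100a13*, *S100a16* and *S100a6* were higher in the last P3 bins than in bin 11. Levels are given where a library had at least 10 cells in a bin, which held for P3 in bins 2 to 14 and for 3m in bins 15 to 19, so the step between them cannot be told apart from age. Beyond these, 9 P3 cells lay in bin 15, and 2, 1 and 1 3m cells in bins 11, 13 and 14. Levels along it describe cells ordered by their own transcriptomes and were not tested. Mean *S100b* was 12 CPM in bin 11, 36.4 CPM in bin 12, 87.0 CPM in bin 13 and 128 CPM in bin 14. In 3m bins 16, 17 and 18 it was 666, 471 and 591 CPM. *S100a1* had means of 84.7, 196, 381 and 435 CPM in bins 11 to 14 and of 838, 964 and 939 CPM in bins 16 to 18.

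*S100a16* and *S100a6* increased within P3 and then levelled. *S100a16* had means of 277, 477, 603 and 628 CPM in bins 11 to 14, and of 678, 559 and 563 CPM in bins 16 to 18. *S100a6* was at 82.5, 147, 248 and 325 CPM and then at 286, 276 and 259 CPM in the same bins. *S100a13* moved less within P3 (103, 168, 214 and 205 CPM) and stood at 702, 639 and 614 CPM at 3m.

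*S100a10* followed a course of its own. Its mean was 107 CPM in bin 10 and 48.1, 18.4, 4.85 and 3.92 CPM in bins 11 to 14, the opposite direction to *S100b* in these cells, and then 17.2, 46.7 and 43.9 CPM in bins 16 to 18. *S100a11* stayed between 25.8 and 53.6 CPM through the P3 bins and was at 15.7, 11.0 and 9.04 CPM in bins 16 to 18, the first of them from a single UMI. Bin 2 held 2 libraries, and bins 15 and 19 held 1 each.

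**Figure D4:**
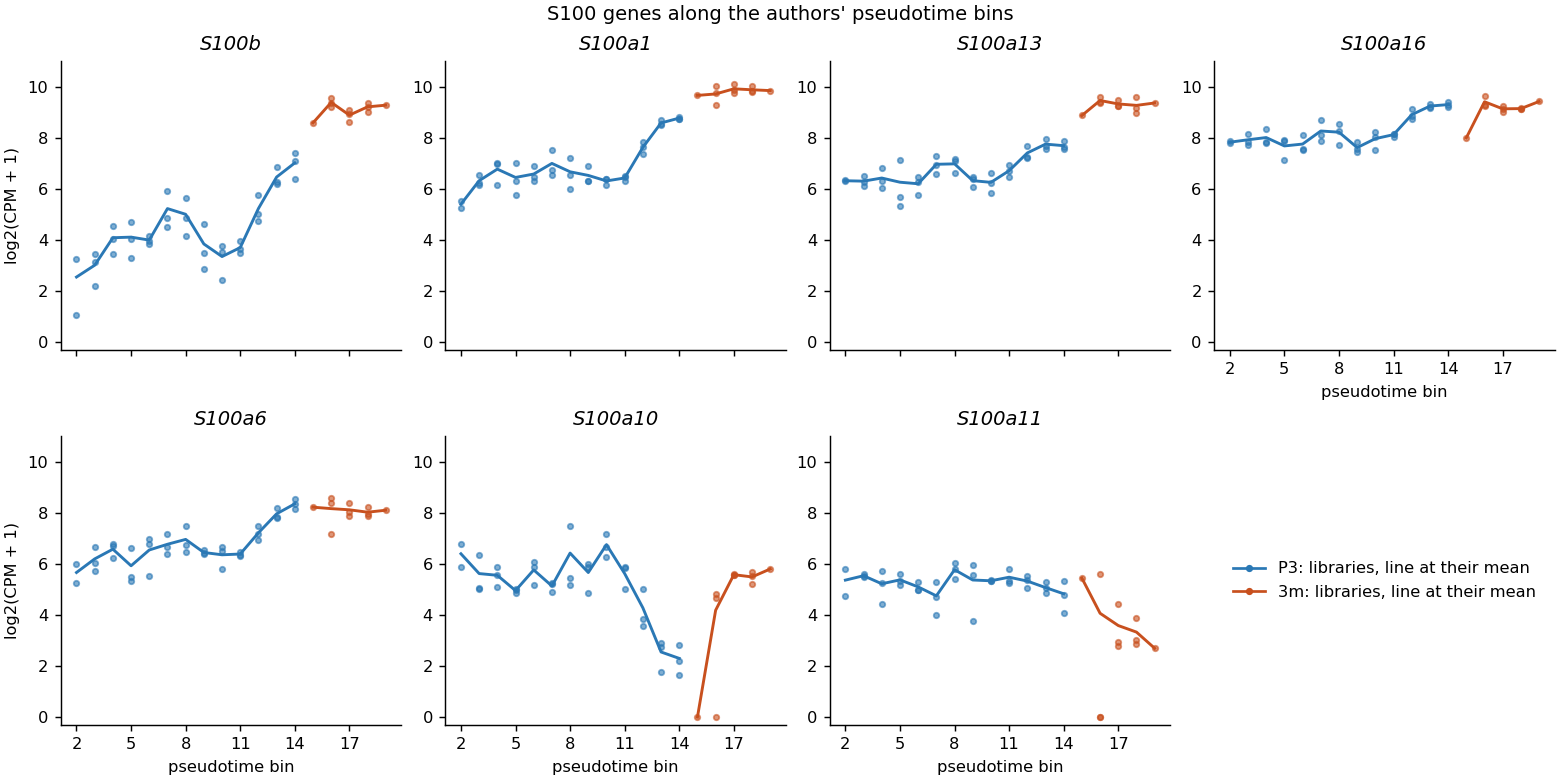
Level of each S100 gene, as log2(CPM + 1), along the authors' pseudotime bins (x axis, no unit), with a point for each library and a line through their mean, P3 in blue and 3m in orange. *S100a10* dips in bins 13 and 14, where *S100b*, *S100a1*, *S100a16* and *S100a6* have their highest P3 levels.

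Proliferating and non-proliferating astroglia were compared within P3, where 1266 of 8778 astroglial cells were taken as cycling because UMIs of 2 or more of *Mki67*, *Top2a* and *Cdk1* were found in them. At 3m no cell met that criterion. Cycling cells had lower *S100b*, *S100a1* and *S100a6* and higher *S100a10*. That made 3 genes lower and 1 higher of 7, where 9.78% of 13207 genes were called lower and 9% higher, with a median log2 fold change of −0.99 for the 7 genes and −0.03 for all genes. *S100a10* was at 44.9, 63.3 and 45.6 CPM in cycling cells of replicates 1 to 3 and at 8.58, 22.1 and 18.5 CPM in the other cells. All libraries showed the difference, which was 3.48-fold (log2 fold change 1.80, SE 0.13, edgeR adjusted p = 3.57e-09).

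*S100b* was at 23.7, 29.5 and 24.7 CPM in cycling cells and at 65.8, 88.4 and 77.3 CPM in the others (log2 fold change −1.43, SE 0.07, edgeR adjusted p = 4.32e-11). *S100a1* was at 109, 123 and 106 CPM and at 350.5, 463 and 419.6 CPM, and *S100a6* at 87.5, 116 and 97.4 CPM and at 265, 492 and 419.8 CPM. Neither pair of ranges overlapped (log2 fold changes −1.72 and −1.81, edgeR adjusted p = 4.74e-13 and 5.44e-12). *S100a13* and *S100a16* lay just inside the fold threshold at −0.98 and −0.99, and *S100a11* was at −0.39 (edgeR adjusted p = 1.31e-09, 1.43e-10 and 0.00934). *S100a13* passed it without replicate 1 (−1.06) and *S100a16* without replicate 2 (−1.02). The other cells pooled many sub-clusters, and non-cycling sub-cluster 2 had levels like those of cycling sub-clusters 6 and 8. Its *S100a10* was at 32.7 to 47.1 CPM, against 36.2 to 63.6 CPM in 6 and 40.9 to 51.4 CPM in 8. Its *S100b* (14.1 to 34.5 CPM) and *S100a6* (83.5 to 129 CPM) overlapped both, and its *S100a1* (133 to 170 CPM) overlapped that of 8 (94.1 to 148 CPM).

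Endothelial cells were compared as cluster 17 at 3m (163 cells) against cluster 7 at P3 (605 cells). The authors' endothelial clusters 12 (349 cells) and 13 (341 cells) did not enter, so the comparison does not cover them. Of the 7 genes, 5 were called higher at 3m and 0 lower, where 11.6% of 10271 genes were called higher and 10.7% lower, and the median log2 fold change was 1.53 against −0.02 for all genes. At an unadjusted p under 0.05 the count of lower genes was also 0. *S100a10* was at 146, 132 and 94.9 CPM at 3m and at 4.98, 6.19 and 5.28 CPM at P3. The ages were far apart, and the gene rose 21.4-fold (log2 fold change 4.42, SE 0.24, edgeR adjusted p = 6.21e-11). *S100a1* was at 153, 179 and 189.8 CPM against 35.9, 40.2 and 45.4 CPM, a 3.98-fold rise (log2 fold change 1.99, SE 0.19, edgeR adjusted p = 1.91e-07).

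*S100a13* rose 2.17-fold in endothelial cells, from 258, 287 and 280.0 CPM to 564, 712 and 647 CPM (log2 fold change 1.12, edgeR adjusted p = 0.000112). *S100a6* was low at both ages, at 16, 15.6 and 26.8 CPM at 3m and 4.41, 5.0 and 9.07 CPM at P3, and rose 2.89-fold (log2 fold change 1.53, SE 0.45, edgeR adjusted p = 0.0134). Without 3m replicate 2 *S100a13* was at 0.998, and without 3m replicate 3 *S100a6* was at 1.16 (edgeR adjusted p = 0.148), both no longer called. *S100b* was called as well (log2 fold change 3.70, edgeR adjusted p = 4.48e-05), from 10.7, 38.9 and 9.73 CPM at 3m, which is 6, 10 and 4 UMIs, against 1.14, 0.952 and 1.35 CPM. The oligodendrocyte markers in the same sums were at 119 to 650 CPM at 3m, highest in replicate 2 as *S100b* was, and at 1.28 to 3.33 CPM at P3, and their part in the *S100b* call was not tested. Without any P3 replicate, *S100b* and *S100a6* did not pass the low-count filter. *S100a16* and *S100a11* had log2 fold changes of 0.25 and 0.19 (edgeR adjusted p = 0.303 and 0.456). The 10 astroglial markers in these endothelial sums were at 1511 to 2234 CPM at 3m and 741 to 1054 CPM at P3, and the 4 neuron markers at 122 to 280 CPM and 5.55 to 16.7 CPM. The 6 pericyte markers summed to 6296 to 6665 CPM at 3m and 1972 to 3493 CPM at P3, and the 4 haemoglobin genes to 19162 to 42600 CPM and 9588 to 26843 CPM. Their part in these differences was not tested.

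The age effects of astroglia and endothelial cells were then set against each other in 1 model. Of the 7 genes, 3 had a lower age effect in astroglia and 0 a higher one, where 8.45% and 7.81% of 12747 genes were called in those directions. The 3 were *S100a10* (difference in log2 fold change −3.41, SE 0.25, edgeR adjusted p = 1.49e-10), *S100a11* (−2.83, SE 0.36, edgeR adjusted p = 1.16e-06) and *S100a6* (−1.61, SE 0.42, edgeR adjusted p = 0.0068), of which the last was not called without 3m replicate 3 (−1.31, edgeR adjusted p = 0.0998) or without P3 cluster 1 (−0.99, edgeR adjusted p = 0.0901). *S100a13* had a higher age effect in astroglia by 0.80, under the fold threshold (edgeR adjusted p = 0.00256), and was the 1 gene higher there at an unadjusted p under 0.05. The differences were −0.13 for *S100b*, −0.31 for *S100a1* and 0.02 for *S100a16* (edgeR adjusted p = 0.889, 0.321 and 0.966). In microglia, with 17 to 23 cells per 3m library and 34 to 46 per P3 library, *S100a1* and *S100a13* passed the low-count filter. Their log2 fold changes were −0.18 and −0.15 (edgeR adjusted p = 0.853 and 0.814), where 6.68% and 3.43% of 2679 genes were called higher and lower.

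**Figure D5:**
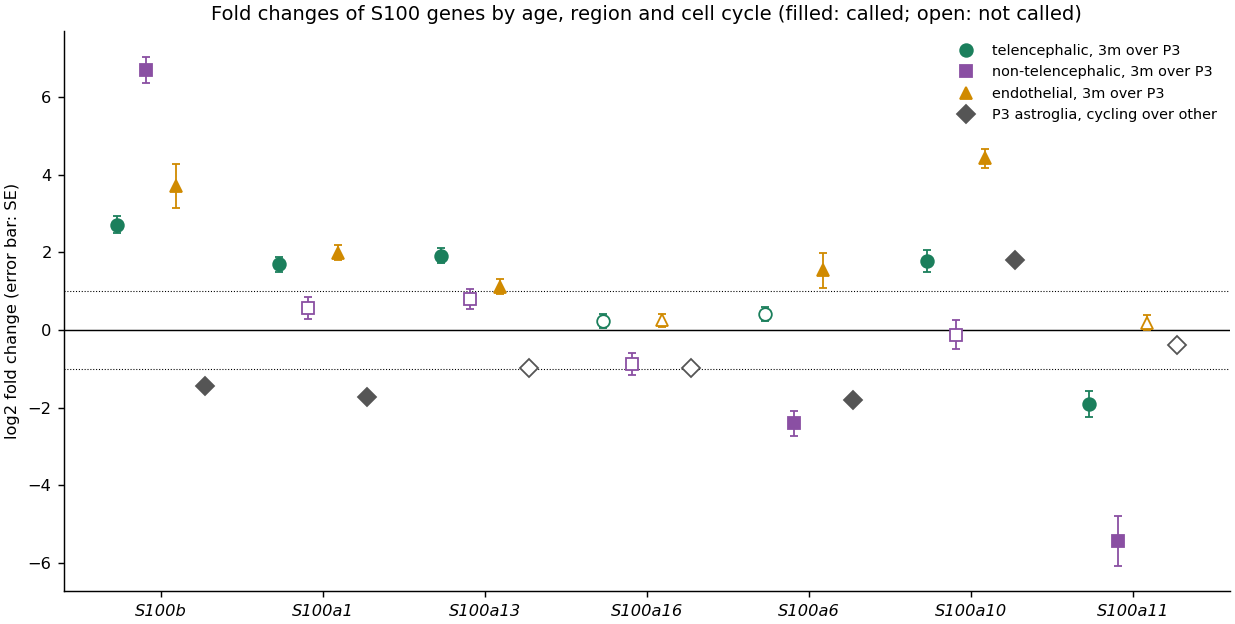
Log2 fold change of each S100 gene with its SE for age (3m over P3) in telencephalic astrocytes, non-telencephalic astrocytes and endothelial cells, and for cycling over other P3 astroglia; filled symbols were called, open ones were not, and dotted lines mark the fold threshold of 1. *S100b* is above 0 in the 3 age comparisons, *S100a10* is called higher in telencephalic astrocytes, endothelial cells and cycling cells, and the non-telencephalic *S100a11* value of −5.42 rests on 3 UMIs at 3m.

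Known partners of S100 proteins were taken from a list of 9 genes. Over all astroglia 8 were tested, of which 3 rose and 2 fell, where 15.9% of 13469 genes were called higher and 16% lower. The median log2 fold change was −0.15 for these partners and −0.04 for all genes. The largest change was in *Anxa2*, the annexin that pairs with S100A10, which fell (log2 fold change −4.46, edgeR adjusted p = 1.33e-05). In 3m astroglia it had 7 UMIs in all, 0.679 to 2.71 CPM, against 21.6 to 47.9 CPM at P3. In telencephalic astrocytes *Anxa2* fell while *S100a10* rose (log2 fold changes −3.47 and 1.76). In non-telencephalic astrocytes no 3m library held an *Anxa2* UMI, which makes it at least 49.0-fold lower if the floor is set at 3 UMIs for the 3 libraries together. In endothelial cells, where *S100a10* rose, *Anxa2* was at 318 to 405 CPM at 3m and 389 to 578 CPM at P3 and was not called.

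*Fgf1*, the growth factor released together with S100A13, rose in all astroglia (log2 fold change 2.36, edgeR adjusted p = 7.13e-08), in telencephalic astrocytes (1.64) and in non-telencephalic astrocytes (3.53). *Anxa5* rose in all astroglia (1.77) and telencephalic astrocytes (2.34), and *Cacybp*, the calcyclin-binding protein, fell in all astroglia (−1.30) and non-telencephalic astrocytes (−1.60). *Ager* was called higher over all astroglia (1.71, edgeR adjusted p = 0.00784) at a very low level, 2.59 to 3.25 CPM at 3m against 0.925 to 1.04 CPM at P3. *Gfap*, an intermediate filament gene whose protein binds S100 proteins, fell in telencephalic astrocytes (−2.06) and rose in non-telencephalic ones (1.41). Its regional difference passed the test as well (3.30, edgeR adjusted p = 1.33e-07). *Anxa6* and *Ahnak* were at −0.28 and −0.20 over all astroglia, neither called.

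Of 10 other S100 genes, 3 were tested over all astroglia (*S100a2*, *S100a3* and *S100a4*), with log2 fold changes of −1.14, 0.01 and 0.31 (edgeR adjusted p = 0.170, 0.990 and 0.255), and they were not called. *S100a4*, which lies between *S100a16* and *S100a6* on chromosome 3, fell in non-telencephalic astrocytes (−1.98, edgeR adjusted p = 0.000259) and was lower in cycling cells (−1.71, edgeR adjusted p = 4.03e-10). Of 27 other EF-hand calcium sensors and buffers, 22 were tested over all astroglia, where 4 rose, 2 fell and 16 did not pass, beside 15.9% higher and 16% lower over all genes (median log2 fold change −0.08). The neuronal calcium sensor gene *Hpca* (3.64), the calbindin gene *Calb1* (2.87) and the mitochondrial EF-hand gene *Efhd1* (2.36) had the largest rises, while *Ncald* (−3.10) and the reticulocalbin gene *Rcn1* (−2.99) fell. *Rcn1* and *Ncald* also fell in both telencephalic (−2.81 and −3.27) and non-telencephalic astrocytes (−3.06 and −2.07).

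Similarity of distribution was described by Pearson's r of log2(CPM + 1) over the 23 clusters with at least 50 cells, among 7754 genes at 50 CPM or more in at least 1 of them. Clusters share libraries and age, so these values carry no test. *S100b* was closest to *Omg* (r = 0.94), the oligodendrocyte myelin glycoprotein gene, and then *Cdh20* and *Adora1* (both 0.84). Despite its name, *Omg* was highest among these clusters in 3m astrocyte cluster 5, at 179 CPM. *S100a11* was closest to *Ifitm2* (0.94), *Wtip* and *Gjc1* (both 0.93), and *S100a16* to *Wscd1* (0.92), *Clcn3* (0.87) and *Limch1* (0.85). Among the genes closest to *S100a6* were *Taco1os* and *S100a4* (0.89 each). *S100a1* was closest to *Ppm1k* (0.88), *Chpt1* (0.87) and *Flrt1* (0.86). *S100a13* was closest to *C1galt1* (0.76), *Fam234a* and *Cyld* (both 0.75), and *S100a10* to *Nek1* (0.65), *Fam81a* and *Gm11837* (both 0.64). Among the 7 genes themselves, *S100a1* was closest to *S100a6* and *S100a16* (0.76 each) and at 0.70 with *S100a13*, and *S100b* and *S100a11* ran opposite (−0.76).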

How the data were processed

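The deposited UMI counts were made by the authors with Cell Ranger on mm10 and merged without normalization. The deposited annotation gave clusters (Seurat 3.1.1 per the submitters' processing notes), astroglial sub-clusters and a pseudotime score and bin made by the authors, used as labels only. The authors' filter (more than 500 genes, less than 10% mitochondrial UMIs) was applied unchanged, and doublets were not removed. UMIs were summed per library and cell group, since cells are not replicates, and tested with edgeR 4.0.16 (R 4.3.3), quasi-likelihood, TMM, filterByExpr, two-sided, Benjamini-Hochberg adjustment over all genes tested. The study itself tested cells along pseudotime. Fold changes are fitted log2 values. Shares were compared by exact permutation tests (scipy 1.17.1). Intervals and floors cover counting error only. Scripts were tested on simulated data.

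The genes and lists were chosen with earlier results of these data known. All 7 S100 genes are named throughout, each partner and other S100 gene that was tested, the 3 largest called changes each way of the EF-hand list, and the 3 genes closest to each S100 gene by Pearson's r, of which 1 is not reported here. The labels do not say how replicate numbers arose, but same-numbered libraries of both ages deviated together (correlations 0.35, 0.14 and 0.12, against −0.26 to 0.18 between other numbers, 2 of which exceeded 0.1), so a replicate block was run as an alternative. Other alternatives were DESeq2 1.42.0, other scaling and filters, thinning, and leaving out libraries or clusters. Gene coordinates are from GENCODE M21.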

Additional observations from a re-analysis of the deposited data

Results flagged for a closer look

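Differences between age effects are listed here where a test of the difference itself was passed (edgeR interaction term). Against endothelial cells, the age effect in astroglia was lower by log2 differences of −1.61 for *S100a6*, −3.41 for *S100a10* and −2.83 for *S100a11*. In non-telencephalic against telencephalic astrocytes it differed by 3.97 for *S100b*, −1.22 for *S100a1*, −1.23 for *S100a13*, −1.20 for *S100a16*, −2.98 for *S100a6*, −1.86 for *S100a10* and −3.60 for *S100a11*. The regional test was added after the levels by sub-cluster had been seen. The −3.60 of *S100a11* rests on 3 UMIs in 3m non-telencephalic cells and lost its call without 3m replicate 2 (−3.13, adjusted p = 0.10), and the −1.61 of *S100a6* did so without 3m replicate 3 (−1.31, adjusted p = 0.0998) and without P3 cluster 1 (−0.99, adjusted p = 0.0901). Without P3 cluster 1 the regional differences of *S100a1*, *S100a13*, *S100a16* and *S100a10* were no longer called (−0.67, −0.97, −0.87 and −0.79), and that of *S100a1* was not called without sub-cluster 2 either (−0.97).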

How the results depend on the processing

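The 5 calls in telencephalic astrocytes and the 4 over all astroglia held under every alternative run, DESeq2 among them for all astroglia. With the replicate block, the pairing moved no member's call, and 4366 genes were called in all astroglia, 3698 in telencephalic, 2466 in non-telencephalic, 2319 in endothelial and 277 in microglial sums. Over all genes, thinning the libraries to the smallest total left 2718 called in astroglia (4298 without), leaving out 1 library gave 1532 to 2888 in non-telencephalic astrocytes (2487 with all; lowest without 3m replicate 2) and 125 to 255 in microglia (271 with all; lowest without 3m replicate 1), and testing all genes with a UMI gave 513 in microglia, with 1 member, *S100a10*, called higher (log2 fold change 2.96). Leaving out libraries gave 3 to 5 endothelial members higher, 3 without any P3 replicate, when *S100b* and *S100a6* did not pass the low-count filter. In cycling cells 5 members were lower without scaling and with all genes, *S100a13* and *S100a16* being added. Over all astroglia *S100a10* was called without P3 replicate 2 (1.18), with thinned libraries (1.21) and without the glial progenitor clusters (1.32).

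Without P3 cluster 1, 3 members were called higher and 1 lower in non-telencephalic astrocytes (1 and 2 with it). In the regional comparison 2 were lower (6 with it). Shares of all genes called are not given for these refits, nor for those behind the endothelial and cycling counts above. Whether these member counts differ from the background of the same refit therefore cannot be told.

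Reversed signs all belonged to values that were not called, and the cause was not tested. Without P3 cluster 1, *S100a6* was at 0.41 over all astroglia and *S100a10* at 0.97 in non-telencephalic astrocytes. Leaving out 1 library gave −0.37 to 0.10 for *S100a6* over all astroglia (above 0 without P3 replicate 2), −0.51 to 0.11 for *S100a10* in non-telencephalic astrocytes (3m replicate 2) and −1.15 to 0.065 for *S100a1* in microglia (3m replicate 2 or 3; without a P3 replicate it did not pass the low-count filter). For the astroglial against endothelial differences it gave −0.44 to 0.47 for *S100b* (above 0 without 3m or P3 replicate 2) and −0.059 to 0.12 for *S100a16*, which was −0.33 without scaling. The difference in *S100a16* share was −3.68 to 0.454 percentage points, and 1.98 at 3000 UMIs per cell. Without scaling the median of all genes moved from −0.06 to −0.42 in non-telencephalic astrocytes and from −0.05 to −0.39 in the comparison with endothelial cells, and the share of calls that were higher from 52.2% to 30.9% and from 48.0% to 24.4%. That share also moved from 51.9% to 40.0% in telencephalic astrocytes, 66.1% to 52.0% in microglia and 47.9% to 37.1% in cycling cells. Depth limits genes with few UMIs at 3m, such as *S100a11*.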
